A study of Mus musculus with 4 samples.

Results

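The genes described here are the colony-stimulating factors and growth factor receptors of myeloid cells, 10 genes of the 31053 counted, taken by their symbols. They are 4 ligands, Csf1, Il34, Kitl and Flt3l, and 6 receptor genes, Csf1r, Csf2ra, Csf2rb, Csf3r, Kit and Flt3. All 10 were present in the count tables, each as 1 protein-coding gene, and levels are given as unique molecular identifiers (UMIs, each counting 1 captured RNA molecule) per 1000000 UMIs of the same cells (CPM).

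Single-cell RNA sequencing was performed on the aortic arch with its main branches and perivascular tissue of male mice that were 3 months old at the start. All mice carried the floxed Nfe2l2 allele, the gene of the transcription factor Nrf2. Nrf2 flox/flox mice had no Cre, whereas Nrf2Cdh5tKO mice carried a constitutive Cre driven by the Cdh5 promoter, which excises exon 5 in endothelial cells and in a proportion of hematopoietic cells. Normocholesterolemic mice received saline and a standard diet (Lox_CTR and KO_CTR, 4 pooled mice each), and atherosclerotic mice received a treatment that raises cholesterol and a high-fat diet for 21 weeks (Lox_HFD and KO_HFD, 3 pooled mice each). Each group was thus 1 library, no difference between groups could be tested, and every interval given covers counting error only. Viable cells were sorted as DAPI-negative, and shares of cells can also depend on how well each type survived dissociation.

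The Lox_CTR, KO_CTR, Lox_HFD and KO_HFD libraries held 7890, 2972, 1020 and 2266 cells after filtering, 14148 of 15599 barcodes, at a median depth of 9200.5 to 14152.5 UMIs per cell. Libraries shared 2 to 10 barcodes in pairs. Cells were assigned to classes by marker genes, none of which was a ligand or receptor described here, and 12876 cells reached a class. Fibroblast-like cells (called fibroblasts below, and likewise for the other classes) numbered 7347, smooth muscle cells 2204, macrophages 1467 and endothelial cells 164. The summed fibroblast markers had a median over cells of 206.2 per 10000 UMIs in fibroblasts and 3.54 in macrophages. The summed macrophage markers had medians of 0.570 and 174.4 per 10000 UMIs in the same classes. The endothelial cells were led by Fabp4, Gpihbp1, Cldn5 and Cdh5. The summed adipocyte list, which holds Fabp4, had a median of 179.6 per 10000 UMIs in them. Many fibroblasts lay near the limit, 2084 with exactly 3 markers that reached the threshold of the assignment, compared with 80 macrophages. Cells gated as classical monocytes were led in summed UMIs by the granule genes Camp and Ngp, and they are called Camp and Chil3 cells. Their summed classical monocyte markers had a median over cells of 85.2 per 10000 UMIs. The summed neutrophil markers had a median of 1.61 in them and of 1628 in neutrophils. Both lists were used to assign these cells, so the medians cannot test what the cells are.

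Nfe2l2 itself was measured first because the labels rest on it. Its level in endothelial cells was 176 CPM in Lox_CTR, 385 in KO_CTR, 172 in Lox_HFD and 362 in KO_HFD, so it was not lower in the libraries labelled Nrf2Cdh5tKO. In macrophages the level was 433, 486, 497 and 441 CPM in the same order. Exon 5, which Cre excises, is the last annotated exon of the gene, and where within Nfe2l2 the counted reads lay was not analysed here. Without these positions, counts of the whole gene cannot show whether the exon was excised, and the labels were not tested. The paper reports by PCR a reduced level of the excised exon in bone marrow-derived macrophages and Kupffer cells of the mice with Cre. It also reports lower expression of selected target genes of the factor in both cell types. KO_CTR and KO_HFD mean below the libraries labelled Nrf2Cdh5tKO.

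Colony-stimulating factor 1 (CSF1, or M-CSF) and interleukin 34 are ligands of the CSF1 receptor, which sustains macrophages and monocytes. The GM-CSF receptor joins the alpha chain encoded by Csf2ra to the common beta chain encoded by Csf2rb, which also serves interleukins 3 and 5, and the G-CSF receptor encoded by Csf3r acts in neutrophils. Stem cell factor, encoded by Kitl, signals through Kit on mast cells and progenitors, and the FLT3 ligand signals through Flt3 on dendritic cells and their precursors. In arteries, stromal and endothelial cells are known sources of several of these ligands, and CSF1 is known for the growth of macrophages in atherosclerotic plaques.

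Csf1 (chr3:107741048-107760469, minus strand, mm10) was mainly a fibroblast transcript. Fibroblasts held 84.6% of all Csf1 UMIs (82.5% to 90.5% in single libraries), while they were 51.9% of the cells and 55.3% of all UMIs. The fibroblast level was 150.2 CPM in Lox_CTR, 151 in KO_CTR, 194 in Lox_HFD and 168 in KO_HFD. Both atherosclerotic libraries thus lay above both normocholesterolemic ones. Fibroblasts positive for Pi16, Dpp4 and Cd55, an adventitial population, had 192, 206, 219.6 and 214 CPM, and the fibroblasts of no sub-population had 136, 133, 178 and 147 CPM in the same order. The Pi16 fibroblasts were higher in each of the 4 libraries.

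Endothelial cells had 90.7, 103, 107 and 163 CPM of Csf1 in Lox_CTR, KO_CTR, Lox_HFD and KO_HFD from 18 to 36 UMIs per library, and their range of values reached into that of fibroblasts. Smooth muscle cells lay well below, at 21.7 to 32.1 CPM. Their pooled level was 19.0% of that of fibroblasts, compared with 3.39% to 5.83% for Dcn, Lum, Dpt, Serpinf1 and Pdgfra in the same cells. These genes were markers of the class assignment, which can lower their share outside fibroblasts. The collagen gene Col1a1, which smooth muscle cells also express, stood at 26.2%.

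Csf1 was low in macrophages, at 7.26, 4.96, 10.4 and 12.1 CPM in the same library order. The fibroblast level was 20.7, 30.5, 18.6 and 13.9 times as high. To set these values against free RNA, the same share was taken for 6 fibroblast genes that macrophages should lack. They were Dcn, Lum, Col1a1, Dpt, Serpinf1 and Pdgfra, which were also the markers that assigned cells to fibroblasts. Cells that reached the marker lists of more than 1 lineage were left out. The shares of these 6 genes in other classes can thus be lowered by the assignment itself, unlike that of Csf1, which was no marker. Macrophages had 4.83%, 3.28%, 5.37% and 7.22% of the fibroblast level of Csf1. The 6 genes stood at 1.80% to 6.11% in Lox_CTR, 1.25% to 5.40% in KO_CTR, 0.734% to 2.28% in Lox_HFD and 2.30% to 6.40% in KO_HFD. In both normocholesterolemic libraries only Serpinf1 was above Csf1, and the next gene, Lum, stood at 3.605% and 2.51%. Csf1 lay above all 6 genes in both atherosclerotic libraries, where it rested on 10 and 31 UMIs. T cells had 3.24%, 0.562%, 2.56% and 6.92% of the fibroblast level, which lay above the 6 genes in Lox_CTR (up to 2.73%) and Lox_HFD (up to 1.26%) and not above them in KO_CTR and KO_HFD. The part of free RNA in these counts was not tested.

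Neutrophils carried Csf1 at 217.5 CPM in Lox_CTR, from 69 UMIs in 31 of 88 cells, a level above that of the fibroblasts of this library. The other libraries had only 7 to 15 neutrophils, with 8, 11 and 2 UMIs in KO_CTR, Lox_HFD and KO_HFD, and their levels of 78.0, 102 and 46.0 CPM lay below those of fibroblasts. The pooled level was 157.5 CPM, or 101% of the fibroblast level, but 82.6 CPM, or 50.8%, without Lox_CTR. In Lox_CTR the 6 fibroblast markers stood at 1.97% to 4.74% of their fibroblast level in neutrophils, compared with 145% for Csf1. In 12 mast cells 10 Csf1 UMIs were found (pooled level 242 CPM), and in 28 group 2 innate lymphoid cells (ILC2) 14 UMIs, both too few to compare libraries.

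Il34 (chr8:110741829-110805924, minus strand) was close to the detection limit, with 142 UMIs in all cells. Fibroblasts held 110 of them in 95 of 7347 cells. Their level was 1.15 CPM in Lox_CTR, 1.56 in KO_CTR, 0.149 in Lox_HFD and 0.978 in KO_HFD, the third value resting on 1 UMI. Macrophages had 1 UMI. Interleukin 34 also binds the phosphatase encoded by Ptprz1 and the syndecan encoded by Sdc1. Ptprz1 was found in smooth muscle cells at a mean of 188.1 CPM (131 to 239 over libraries) and at 1.48 CPM in macrophages. Sdc1 had a mean of 23.4 CPM in fibroblasts and 36.6 CPM in cavity macrophages.

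Kitl (chr10:100015630-100100416, plus strand) differed from the other ligands in that its level in macrophages was above that in fibroblasts. Endothelial cells had 282, 202, 166 and 102.5 CPM in Lox_CTR, KO_CTR, Lox_HFD and KO_HFD, from 17 to 112 UMIs. Macrophages had 68.2, 87.1, 88.6 and 86.1 CPM, whereas fibroblasts had 43.7, 33.5, 47.1 and 32.5 CPM. In every library the macrophage level was thus the higher, 1.56, 2.60, 1.88 and 2.65 times that of fibroblasts. Smooth muscle cells had 41.4, 35.8, 60.4 and 44.8 CPM, close to fibroblasts. Because fibroblasts are numerous, they still held 53.2% of Kitl UMIs, with 18.9% in smooth muscle cells and 15.8% in macrophages.

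Within macrophages, Kitl was highest in the Lyve1+ resident range (Lyve1, Folr2, Cd163), the perivascular macrophages of the adventitia. Lyve1+ macrophages had 100.7, 117, 179.8 and 118 CPM and Trem2 and Cx3cr1 macrophages 24.4, 41.0, 8.33 and 45.6 CPM in the same order, without overlap. The third of the latter values rested on 2 UMIs. Macrophages of no sub-population had 54.9 to 87.5 CPM and cavity macrophages 32.1 to 56.6 CPM, in the libraries with enough of these cells. Of 614 macrophages with a Kitl UMI, 608 also had a Csf1r UMI, as did 1348 of all 1467 macrophages and 832 of all 855 Lyve1+ macrophages. cDC2, at 0 to 5.24 CPM, carried little Kitl.

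Flt3l (chr7:45129788-45136432, minus strand) was the other ligand held mainly by fibroblasts, with 80.8% of its UMIs there. Their level was 27.9, 33.2, 30.3 and 27.5 CPM in Lox_CTR, KO_CTR, Lox_HFD and KO_HFD, a narrow range. Pi16 fibroblasts, the highest for Csf1, were the lower population for Flt3l, with a mean of 15.2 CPM (12.7 to 21.1 over the 4 libraries). The fibroblasts of no sub-population had a mean of 36.4 CPM (33.3 to 40.5). T cells had 13.1, 18.7, 24.8 and 14.0 CPM. This was 47.0%, 56.3%, 81.9% and 50.7% of the fibroblast level, compared with at most 14.9% for any of the 6 fibroblast markers in any library. Macrophages had 4.70 to 9.38 CPM and smooth muscle cells 2.63 to 5.46 CPM.

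**Figure D1:**
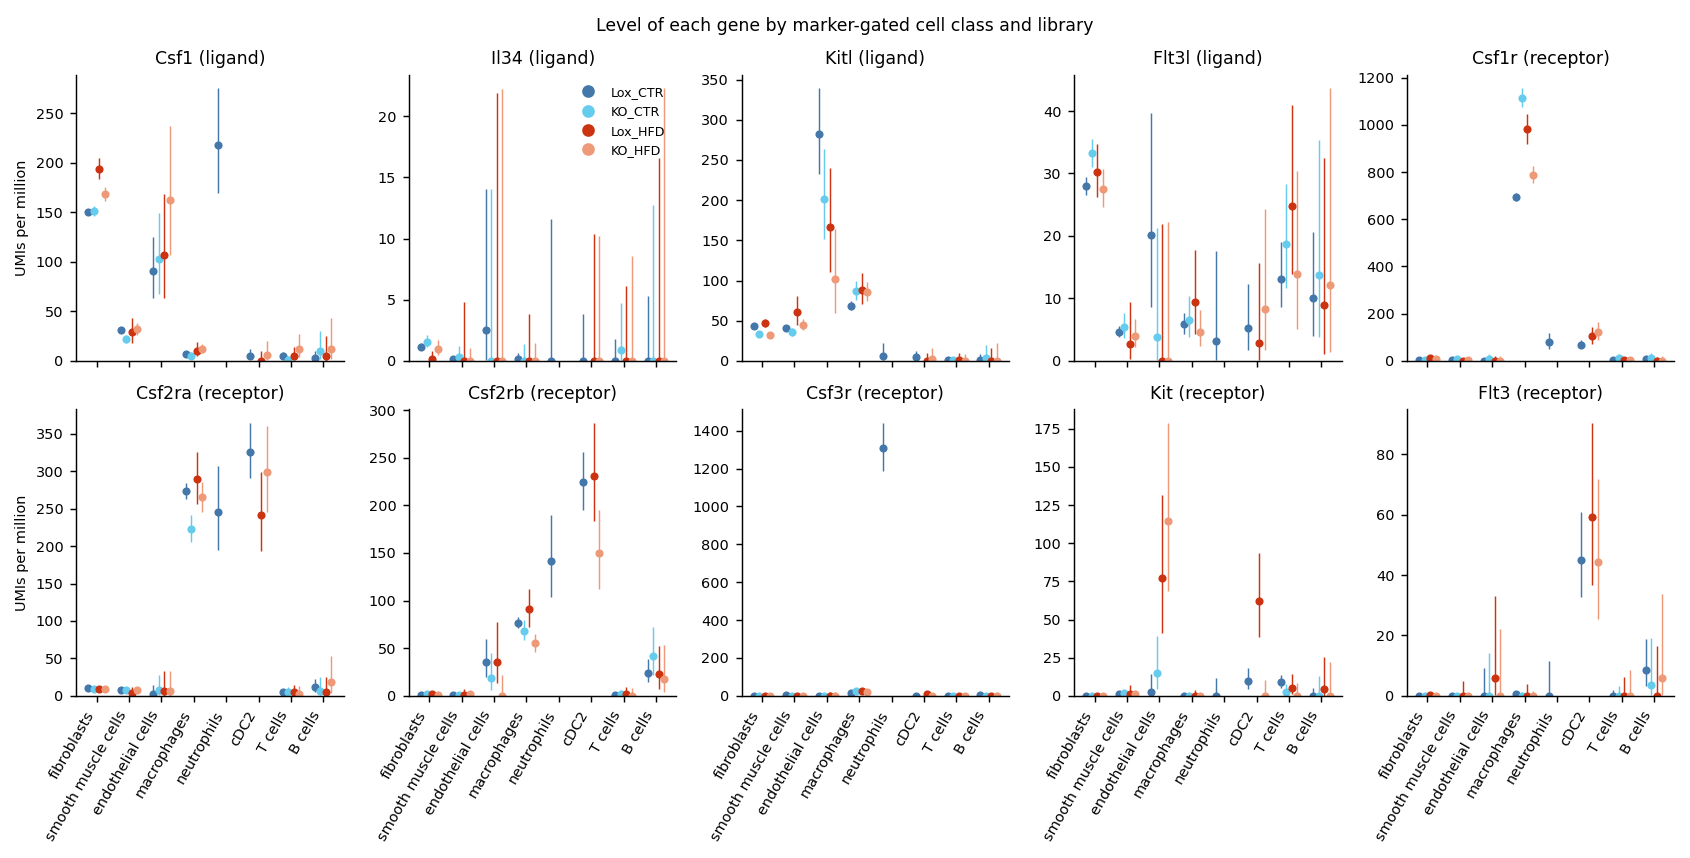
Level of each gene (UMIs per 1000000 UMIs of the class, linear axis with its own range in each panel) in 8 cell classes, with 1 point per library of at least 20 cells and exact 95% Poisson intervals. Csf1 and Flt3l were highest in fibroblasts among the classes with all 4 libraries, Kitl was higher in endothelial cells and macrophages than in fibroblasts, and Csf1r, Csf2ra and Csf2rb were high in macrophages or cDC2.

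**Figure D2:**
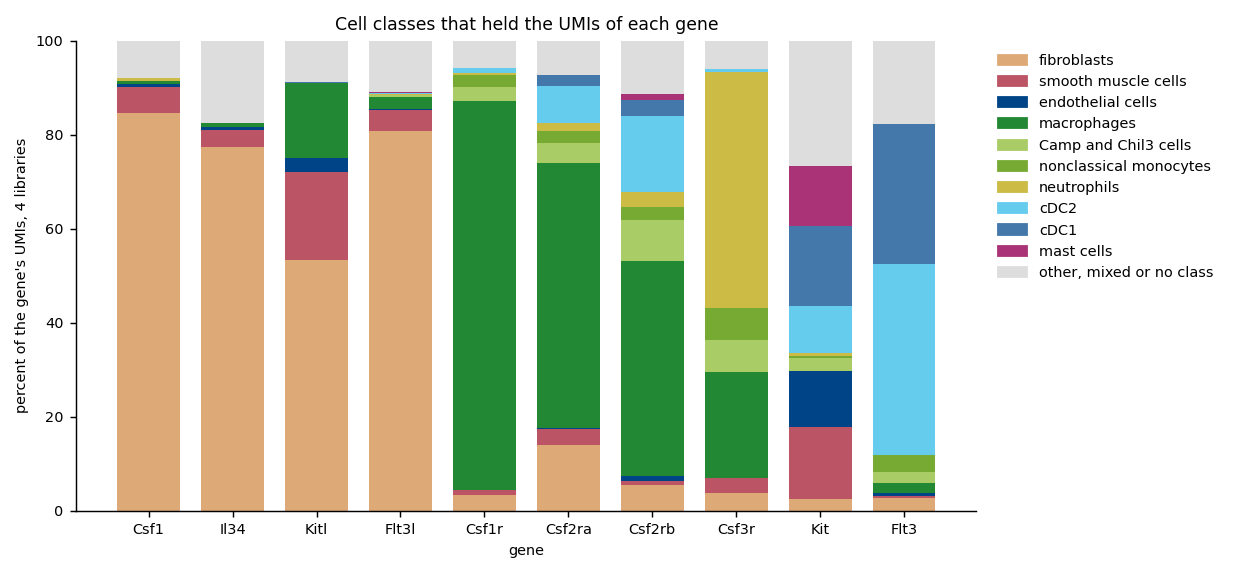
Share of the UMIs of each gene (percent, 4 libraries together) held by each cell class, with cells of other classes, of mixed lineage or of no class in grey. Fibroblasts held 84.6% of Csf1, 80.8% of Flt3l and 53.2% of Kitl UMIs, and macrophages 82.7% of Csf1r UMIs.

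Csf1r, which encodes the receptor of CSF1 and interleukin 34, marked macrophages in all libraries. Macrophages had 694, 1114, 982 and 789 CPM in Lox_CTR, KO_CTR, Lox_HFD and KO_HFD and held 82.7% of its UMIs. A Csf1r UMI was found in 91.9% of macrophages (median depth 9114 UMIs), or in 76.6% when each cell was thinned to 2000 UMIs. In fibroblasts, which should lack it, the share was 4.49% to 6.03% over libraries (median depth 12998 UMIs). The Csf1r level in fibroblasts was 0.728%, 0.286%, 1.06% and 0.775% of that in macrophages. The macrophage genes C1qa, C1qb, C1qc, Adgre1 and Mrc1 stood at 0.330% to 0.565%, 0.235% to 0.649%, 0.640% to 1.10% and 0.475% to 1.12% in the same order. These 5 genes were macrophage markers of the class assignment, which can lower their share in stromal classes, whereas Csf1r was no marker. Fibroblast Csf1r thus lay within the range of these genes in 3 libraries and above it in Lox_CTR. In smooth muscle cells Csf1r stood at 0.512%, 0.827%, 0.134% and 0.728%, above the 5 genes in Lox_CTR alone (up to 0.494%). The part of free RNA in these stromal counts was not tested.

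Among phagocytes, Csf1r was highest in Lyve1+ macrophages, with 1026, 1375, 1654 and 1143 CPM in the same order. Trem2 and Cx3cr1 macrophages (Trem2, Cx3cr1, Acp5, Cd72), a range to which lipid-associated macrophages belong, had 605, 714, 529 and 632 CPM. Cavity macrophages (Lyz1, Retnla, Fn1, Ear2) reached 20 cells in 2 libraries and had 236 CPM in Lox_CTR and 272 CPM in KO_HFD. Their name rests on these cavity markers. The summed macrophage markers had a median of 11.77 per 10000 UMIs, compared with 194 in Lyve1+ and 168 in Trem2 and Cx3cr1 macrophages. The summed cDC2 markers, which include MHC II genes, had 164.3, compared with 158.3 in Trem2 and Cx3cr1 macrophages and 247.8 in cDC2. Whether these cells are macrophages was not tested. The 3 ranges did not overlap in Csf1r. Macrophages of no sub-population, at 586 to 1029 CPM, overlapped with Lyve1+ and with Trem2 and Cx3cr1 macrophages. Nonclassical monocytes had a pooled level of 581 CPM, and cDC2 had 68.2, 104 and 122 CPM in the 3 libraries with 20 or more of these cells. In cDC1 only 3 Csf1r UMIs were found in 37 cells.

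Csf2ra (chr19:61223957-61228429, minus strand) was more widely spread over phagocytes than Csf1r, and macrophages held 56.4% of its UMIs. Of the 3873 Csf2ra UMIs of macrophages, 1549 came from the cavity macrophages of Lox_CTR and KO_HFD, whose identity was not tested. Macrophages had 273, 223, 289.6 and 265 CPM in Lox_CTR, KO_CTR, Lox_HFD and KO_HFD. The order of the ranges was the reverse of that for Csf1r. Cavity macrophages had 499 CPM in Lox_CTR and 472 CPM in KO_HFD, Trem2 and Cx3cr1 macrophages 231 to 311 CPM and Lyve1+ macrophages 143 to 188 CPM. Again these 3 ranges did not overlap. Macrophages of no sub-population had 180 to 199 CPM, overlapping with Lyve1+ macrophages. cDC2 had 326, 242 and 299 CPM in Lox_CTR, Lox_HFD and KO_HFD, overlapping with Trem2 and Cx3cr1 macrophages. Fibroblasts had 9.10 to 10.9 CPM, 3.84% of the pooled macrophage level and above the 0.406% to 0.693% of the C1q genes, Adgre1 and Mrc1. Those genes, unlike Csf2ra, were macrophage markers of the class assignment, which can lower their share in fibroblasts. The cells that gave the Csf2ra UMIs of fibroblasts were not identified.

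Csf2rb (chr15:78325752-78353847, plus strand), the common beta chain, was higher in cDC2 than in macrophages as a whole. cDC2 had 224, 231 and 149 CPM in Lox_CTR, Lox_HFD and KO_HFD, and macrophages had 76.4, 68.3, 90.6 and 55.2 CPM in the 4 libraries. Cavity macrophages had 185 and 119 CPM in Lox_CTR and KO_HFD, overlapping with cDC2. In these 2 libraries they gave 544 Csf2rb UMIs, compared with 1060 in all macrophages of the 4 libraries. Lyve1+ macrophages had 26.4, 49.3, 53.9 and 25.8 CPM and Trem2 and Cx3cr1 macrophages 24.4, 38.8, 125 and 76.0 CPM, so these ranges overlapped. Of 185 cavity macrophages, 127 had UMIs of both Csf2ra and Csf2rb, as did 129 of 855 Lyve1+ macrophages, whose median depth was lower (8298 compared with 19167 UMIs). The neighbouring copy Csf2rb2 contains 26.2% of the 31-base words of Csf2rb transcripts, and 17.5% of those in their last 1000 bases. Reads of shared sequence may have been lost or split between the pair, and Csf2rb values are uncertain to that extent. Endothelial cells had 14, 5, 6 and 0 Csf2rb UMIs.

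**Figure D3:**
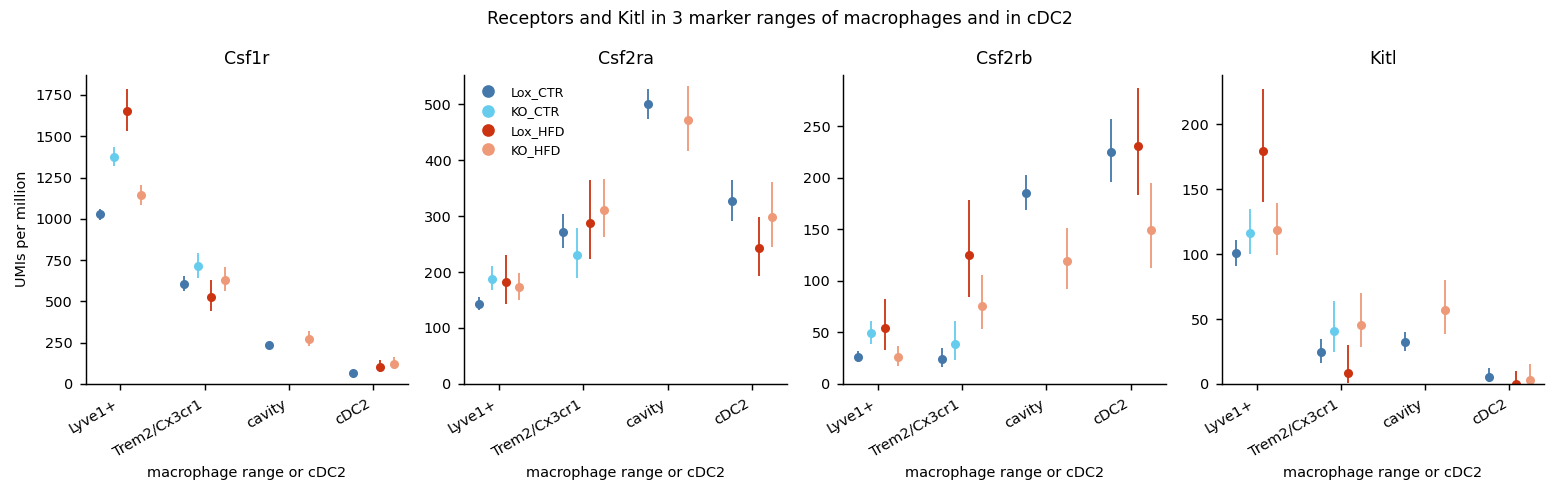
Levels of Csf1r, Csf2ra, Csf2rb and Kitl (UMIs per 1000000, linear axes) in 3 marker ranges of macrophages and in cDC2, with 1 point per library of at least 20 cells and exact 95% Poisson intervals. Csf1r and Kitl were highest in the Lyve1+ range (1026 to 1654 CPM and 100.7 to 179.8 CPM), whereas Csf2ra was highest in cavity macrophages (472 and 499 CPM).

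Csf3r (chr4:126024550-126044440, plus strand) had its highest level in neutrophils, which held 50.3% of its UMIs although they were 0.862% of the cells. The share was 57.6%, 46.6%, 28.8% and 29.8% in Lox_CTR, KO_CTR, Lox_HFD and KO_HFD, and 37.0% without Lox_CTR. In KO_HFD macrophages held more, 54.8%. In Lox_CTR, the library with enough neutrophils for a level, it reached 1308 CPM. The 7 to 15 neutrophils of the other libraries gave 82, 38 and 25 UMIs in KO_CTR, Lox_HFD and KO_HFD, and without Lox_CTR the pooled level was 571 CPM in place of 980.1 CPM. A UMI was found in 90.2% of the 122 neutrophils at a median depth of 3392 UMIs, and in 84.1% after thinning. Nonclassical monocytes had a pooled level of 114 CPM. Macrophages had 13.5, 24.1, 27.1 and 18.0 CPM in the 4 libraries. Lyve1+ macrophages were at 20.5 to 30.8 CPM, and cavity macrophages at 2.71 CPM in Lox_CTR and 0 in KO_HFD.

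The promoters of Csf2ra and Csf3r are shown because these receptors were held by myeloid classes and because the sequence GAGGAA, the core bound by PU.1, occurs in them. PU.1, encoded by Spi1, is a transcription factor that directs myeloid development, and Spi1 had a mean of 400 CPM in macrophages (359 to 432) and 2.03 to 5.22 CPM in fibroblasts. The RefSeq windows on GRCm38.p6 reach from 250 bases before to 50 bases after the annotated start, 5′ to 3′ on the strand of the gene, with GAGGAA in capitals. Csf2ra lies at chr19:61228369-61228668 (minus strand) and Csf3r at chr4:126024409-126024708 (plus strand).
Csf2ra: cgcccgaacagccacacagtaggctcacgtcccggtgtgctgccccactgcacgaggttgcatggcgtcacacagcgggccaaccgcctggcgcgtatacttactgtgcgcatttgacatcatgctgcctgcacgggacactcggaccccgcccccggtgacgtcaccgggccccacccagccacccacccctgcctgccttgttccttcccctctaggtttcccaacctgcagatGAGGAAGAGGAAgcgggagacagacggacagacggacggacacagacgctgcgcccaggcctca
Csf3r: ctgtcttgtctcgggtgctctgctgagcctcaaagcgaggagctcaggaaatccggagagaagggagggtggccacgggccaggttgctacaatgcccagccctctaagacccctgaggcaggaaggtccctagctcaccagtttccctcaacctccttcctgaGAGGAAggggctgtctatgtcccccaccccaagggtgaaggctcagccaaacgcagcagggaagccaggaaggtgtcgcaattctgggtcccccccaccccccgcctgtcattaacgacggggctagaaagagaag

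The Csf2ra window holds 2 adjoining matches, beginning 14 and 8 bases before the start, and the Csf3r window 1 match 86 bases before it. Of the 10 genes, 7 matched a RefSeq promoter. The window of Kit also holds 1 match, and those of Csf1, Kitl, Flt3l and Flt3 hold none on either strand. GAGGAA or its reverse complement was present in 28.3% of all 32851 promoter windows of this length, and 4.82% held at least 2 matches. A match of these letters describes the sequence and was not tested for binding.

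Kit (chr5:75574916-75656722, plus strand) was rare, with 314 UMIs, and no class held most of them. The 12 mast cells held 40 UMIs in 8 cells, of which 15 lay in 1 cell, at a pooled level of 967 CPM. The 37 cDC1 held 53 UMIs in 23 cells (62.2%, or 11.1% after thinning), and the 28 ILC2 held 18 UMIs. Smooth muscle cells held 48 UMIs, but spread over 2204 cells this was a pooled level of 1.48 CPM. No UMI was found among the 14678751 UMIs of the 1467 macrophages, a class that carried Kitl, which allows a level of up to 0.204 CPM by a floor of 3 counts over the class.

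In endothelial cells Kit had 2.52, 15.2, 77.2 and 115 CPM in Lox_CTR, KO_CTR, Lox_HFD and KO_HFD. These values came from 1, 4, 13 and 19 UMIs, and in each library they lay in 3 cells or fewer, with 11 of the 13 in 1 cell of Lox_HFD. The higher values of both atherosclerotic libraries thus rested on 6 cells. In cDC2, 22 Kit UMIs were found in 12 of 22 cells of Lox_HFD, 9 UMIs in 6 of 76 cells of Lox_CTR and no UMI in 22 cells of KO_HFD.

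Flt3 (chr5:147330741-147400489, minus strand) was a dendritic cell transcript, with 40.6% of its 219 UMIs in cDC2 and 29.7% in cDC1, the conventional dendritic cells of type 2 and type 1. cDC2 had 45.1, 59.1 and 44.3 CPM in Lox_CTR, Lox_HFD and KO_HFD, with overlapping intervals. The 37 cDC1 had a pooled level of 87.4 CPM and a UMI in 78.4% of cells (13.9% after thinning). Of 23 cDC1 with Kit, 19 also had Flt3. Macrophages had 5 UMIs in all. Its ligand Flt3l had 10 UMIs in cDC2 and 2 in cDC1.

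**Figure D4:**
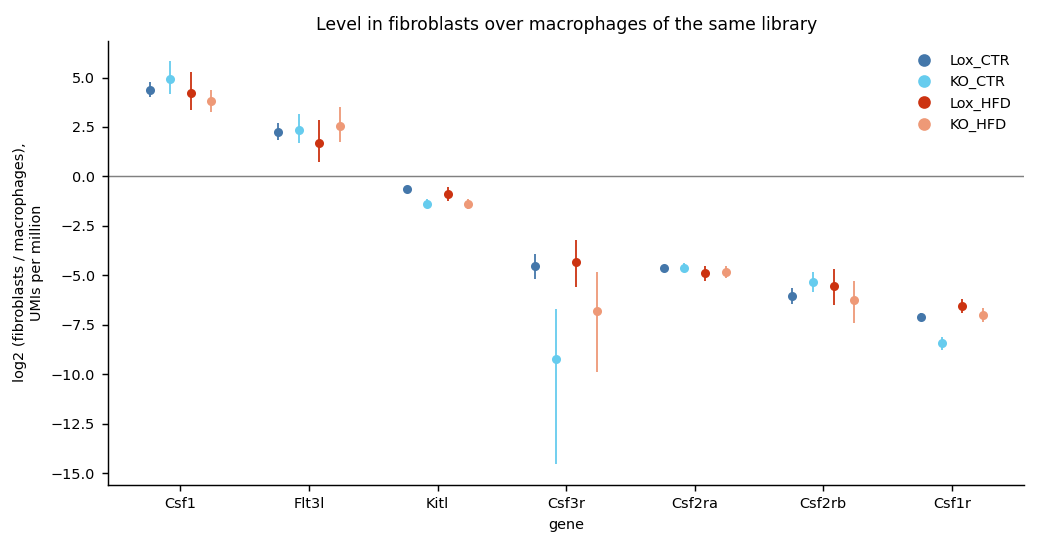
Log2 ratio of the level in fibroblasts over that in macrophages of the same library (y axis) for 7 genes, with 1 point per library and exact 95% binomial intervals. Csf1 and Flt3l lay above 0 and the receptors below 0 in all 4 libraries, and Kitl lay between -0.64 and -1.41.

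Within each library, the ligands and receptors could be set against each other in fibroblasts and macrophages. The log2 ratio of fibroblasts over macrophages was 3.79 to 4.93 for Csf1 and 1.69 to 2.55 for Flt3l. It was negative for Kitl (-1.41 to -0.64) and for all receptors with enough counts. Among them it was -4.90 to -4.61 for Csf2ra, -6.23 to -5.32 for Csf2rb and -8.45 to -6.56 for Csf1r. The fibroblast level of Csf3r was 4.28%, 0.166%, 4.955% and 0.905% of the macrophage level in Lox_CTR, KO_CTR, Lox_HFD and KO_HFD. These Csf3r values rested on 29, 1, 9 and 2 fibroblast UMIs. The counting intervals left out 0 for each of these genes in each library. The Csf1r counts of fibroblasts in these ratios were low, as given above.

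The diet and genotype comparisons were made within classes. Diet stands here for the high-fat diet together with the treatment given with it, which cannot be told apart. As background, 10.0% of 14224 genes with at least 20 UMIs in fibroblasts differed at least 2-fold between Lox_HFD and Lox_CTR, 6.58% between KO_HFD and KO_CTR, 7.27% between KO_CTR and Lox_CTR and 2.74% between KO_HFD and Lox_HFD. In macrophages the corresponding shares were 16.4%, 7.31%, 13.4% and 9.38%. Of the genes described here with at least 20 UMIs, 3 of 8, 1 of 7, 1 of 8 and 1 of 6 passed 2-fold in fibroblasts and 1 of 7, 1 of 7, 0 of 7 and 0 of 7 in macrophages. In fibroblasts these were Il34, Csf1r, Csf2rb and Csf3r, at levels of at most 10.4 CPM, and in macrophages they were Csf3r and Csf1. Csf1, Kitl and Flt3l in fibroblasts and Csf1r, Csf2ra and Csf2rb in macrophages as a whole stayed under 2-fold in all 4 comparisons. In Lyve1+ macrophages alone Csf2rb passed 2-fold, as given below.

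Csf1 in fibroblasts was higher in the atherosclerotic libraries. The log2 ratio was 0.37 (95% interval 0.28 to 0.46) for Lox_HFD over Lox_CTR and 0.15 (0.07 to 0.23) for KO_HFD over KO_CTR, or 1.29-fold and 1.11-fold. In Pi16 fibroblasts the ratios were 0.19 (0.06 to 0.32) and 0.05 (-0.07 to 0.18). With TMM factors, which correct for differences in the make-up of the RNA, the fibroblast ratios were 0.29 and 0.18. Between the genotypes Csf1 differed by 0.01 (-0.04 to 0.07) in the normocholesterolemic and by -0.21 (-0.31 to -0.11) in the atherosclerotic libraries.

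Kitl in fibroblasts was lower in the libraries labelled Nrf2Cdh5tKO, with log2 ratios of -0.38 (-0.50 to -0.27) for KO_CTR over Lox_CTR and -0.54 (-0.75 to -0.32) for KO_HFD over Lox_HFD. The diet ratios of 0.11 and -0.04 had intervals that covered 0. In endothelial cells Kitl was lower in the atherosclerotic libraries, by log2 ratios of -0.76 (-1.42 to -0.15) and -0.98 (-1.86 to -0.17), from 22 to 74 cells per library. Taken as a mean over cells, the first of these turned to 0.24. Flt3l in fibroblasts had ratios of 0.25 (0.13 to 0.38) for KO_CTR over Lox_CTR and -0.27 (-0.46 to -0.09) for KO_HFD over KO_CTR. Its other ratios were 0.12 (-0.10 to 0.33) for Lox_HFD over Lox_CTR and -0.14 (-0.39 to 0.12) for KO_HFD over Lox_HFD. All these differences were under 2-fold and have no replicate.

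Csf1r in macrophages moved in opposite directions with diet in the genotypes. It was higher in Lox_HFD than in Lox_CTR, with a log2 ratio of 0.50 (0.40 to 0.60), and lower in KO_HFD than in KO_CTR, at -0.50 (-0.58 to -0.42). The difference between the genotypes in the response to diet was not tested. The ratio of KO_CTR over Lox_CTR was 0.68 (0.62 to 0.75) and that of KO_HFD over Lox_HFD was -0.32 (-0.43 to -0.20). The median over all genes of this class was itself shifted, by 0.13, -0.11, 0.24 and -0.03 in these comparisons. With TMM factors the Csf1r ratios were 0.26, -0.39, 0.40 and -0.25. In Lyve1+ macrophages alone they were 0.69, -0.27, 0.42 and -0.53, and in Trem2 and Cx3cr1 macrophages -0.19, -0.17, 0.24 and 0.26, of which only the third had an interval without 0.

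The make-up of the macrophages differed between some libraries. The shares of Lyve1+ and cavity macrophages were close in Lox_HFD and KO_HFD. Lyve1+ macrophages, the range with the highest Csf1r, were 56.7%, 66.1%, 55.9% and 54.6% of macrophages in Lox_CTR, KO_CTR, Lox_HFD and KO_HFD, and cavity macrophages, with the lowest Csf1r and the highest Csf2ra, were 19.3%, 3.64%, 8.11% and 8.17%. Csf2ra ratios differed between all macrophages and the Lyve1+ range. In all macrophages KO_CTR lay below Lox_CTR by a log2 ratio of -0.30 (-0.43 to -0.16), but in Lyve1+ macrophages it lay above, at 0.40 (0.19 to 0.60). With TMM factors the values were -0.58 and 0.20, and the interval of the latter covered 0. Csf2rb in Lyve1+ macrophages had diet ratios of 1.03 (0.28 to 1.71) in the Lox and -0.93 (-1.58 to -0.32) in the KO libraries, from 21 to 107 UMIs. With TMM factors the former was 0.68 and its interval covered 0. The part of make-up in the ratios over all macrophages was not tested.

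**Figure D5:**
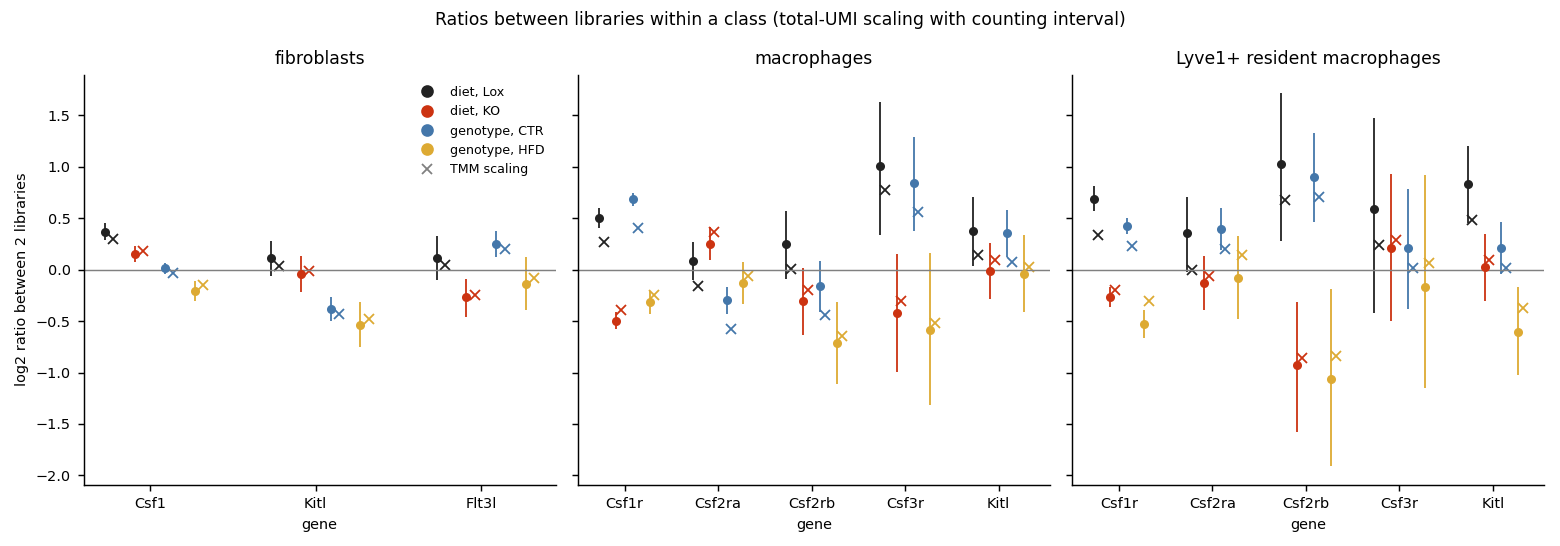
Log2 ratios between 2 libraries (y axis) within fibroblasts, macrophages and Lyve1+ macrophages, for the diet in each genotype and the genotype in each diet. Points with exact 95% binomial intervals use total UMIs, and crosses use TMM factors. Csf1r in macrophages lay at 0.50 with diet in the Lox and at -0.50 in the KO libraries, and Kitl in fibroblasts below 0 in both genotype comparisons.

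The other genes of these pathways were taken as lists. Of 14 signalling genes downstream of the receptors, 14 reached a mean of 10 CPM in macrophages, 12 in T cells, 11 in endothelial cells and 8 in fibroblasts. Tyrobp, the DAP12 adaptor, had a mean of 1577 CPM in macrophages, compared with 18.9 CPM in fibroblasts. Socs3, a feedback inhibitor of cytokine signalling, was in contrast higher in fibroblasts (mean 701 CPM) than in macrophages (323 CPM). Past 2-fold between libraries in macrophages were 1, 0, 0 and 2 of the 14 genes in the 2 diet and then the 2 genotype comparisons, Stat5b, then Stat5a and Cish, compared with 16.4%, 7.31%, 13.4% and 9.38% of all genes. The median log2 ratio of the list was 0.27, -0.29, 0.00 and -0.34, compared with 0.13, -0.11, 0.24 and -0.03 over all genes. Of 9 myeloid transcription factors, 8 reached 10 CPM in macrophages and 6 in fibroblasts. Past 2-fold in macrophages were 1 of 8 with enough UMIs with diet in Lox (Maf, up) and 1 of 9 with diet in KO (Cebpe, up). Between the genotypes, Cebpe and Maf passed in the normocholesterolemic libraries, 1 up and 1 down of 9, and 0 of 8 in the atherosclerotic ones. The shares of all genes are those given above. Maf, a factor of resident macrophages and here a marker of the Lyve1+ range, had 339 to 961 CPM in macrophages, whereas Cebpe was under 10 CPM.

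Of the 11 further cytokines and receptors of the same families, 3 reached 10 CPM in macrophages, Il3ra at a mean of 39.6 CPM, Epor at 5.38 to 19.5 CPM and Csf2rb2 at a mean of 12.5 CPM. Epor, the erythropoietin receptor, was found in Lyve1+ macrophages at a mean of 24.1 CPM (9.63 to 41.1). Csf3, the ligand of Csf3r, had 22 UMIs in macrophages and 8 in fibroblasts. No UMI of Il3 or Epo was found in these classes. The sheddases Adam17 and Adam10, which can release membrane-bound CSF1, stem cell factor and CSF1 receptor, had means of 79.1 and 93.3 CPM in macrophages and of 40.8 and 45.9 CPM in fibroblasts, and Adam10 had 275 CPM in endothelial cells.

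Genes with the most similar pattern were sought over 36 levels of 13 classes in single libraries, which share their libraries and classes. Csf1r was most like Lyz2 (Pearson r = 0.93 across classes) and Fcgr3, Csf2ra like Cd300c2 (0.96) and Nlrp3, Csf2rb like Themis2 (0.93) and Spi1, and Csf3r like Tlr13 (0.96) and Fpr2. Among the ligands, Csf1 was most like Fmo1 (0.86), Kitl like Fer (0.92) and Flt3l like Hsd11b1 (0.72). Kit and Flt3, with few counts, had their closest genes at 0.68 (Prr15) and 0.80 (Syngr2).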

How the data were processed

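Single cells of 4 libraries, 1 per group, were used. The values the authors deposited are raw counts of UMIs per gene and cell barcode. To make them, 10x Chromium 3′ v3.1 reads were mapped to mm10 and counted with Cell Ranger 6.1.2, per the labels and the study's methods, and barcodes called as cells were kept. Cell types were assigned anew.

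The limits on cells followed the study, with 200 to 6000 genes and mitochondrial UMIs of 15% or less. A marker gene was on in a cell where it had at least 1 UMI and its share of UMIs reached 10% of the mean of the 50 cells with most of it, and a class needed 3 markers on. Cells that reached the lists of more than 1 lineage were called mixed (418) and left out, and 854 cells had no class. B cells shared a lineage with myeloid cells because the lists share MHC II genes, a choice made after the data were seen. Scrublet called 265 doublets (1.87%), which were left in. UMIs were summed per class and library and scaled to 1000000 (CPM). Levels are given for classes of at least 20 cells in a library, and smaller classes as pooled values or UMIs. Poisson, binomial and Clopper-Pearson intervals are exact, at 95%, and cover counting error only. For shares of cells, each cell was also thinned to 2000 UMIs and shallower cells left out. The study compared cells with a test that takes them as replicates, which was not used, and no p-value was computed. Totals were 98754487, 43717402, 12276546 and 24184211 UMIs in Lox_CTR, KO_CTR, Lox_HFD and KO_HFD, so Lox_HFD gave the least precise values.

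The 10 genes, the gene lists and the marker lists were chosen with earlier results of these data known. Named beside them are list genes at 10 CPM or more and the 3 genes with the highest Pearson correlation of log2(CPM + 1) with each. Alternatives were 1 more marker for a class, a mitochondrial limit of 10%, no upper limit on genes, doublets left out, means over cells, TMM factors (edgeR 4.0.16), median-of-ratios factors, no minimum of UMIs, and, added after the data were seen, markers on at 5% or 20%. The ratio code was tested on simulated counts. Positions come from GENCODE M21 and promoters from RefSeq. Python 3.11.15, numpy 2.4.6, pandas 2.3.3, scipy 1.17.1, scanpy 1.11.5 and matplotlib 3.10.9 were used. The agent given with the high-fat diet and some genes of the lists are not reported here.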

Additional observations from a re-analysis of the deposited data

Results flagged for a closer look

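Among the values whose diet ratios had counting intervals without 0 in both genotypes, the signs were opposite for 3. With 1 library per group the difference was not tested for any of them. How many of all genes did the same was not counted. The Csf1r values are not separate, because Lyve1+ macrophages are part of all macrophages. The median over all genes of macrophages also changed sign, at 0.13 with diet in Lox and -0.11 in KO. Csf1r in Lyve1+ macrophages had a log2 ratio of atherosclerotic over normocholesterolemic libraries of 0.69 in the Nrf2 flox/flox libraries and of -0.27 in the libraries labelled Nrf2Cdh5tKO. Csf1r in all macrophages had 0.50 and -0.50. Csf2rb in Lyve1+ macrophages had 1.03 and -0.93, from 21 to 107 UMIs per library, and its neighbouring copy Csf2rb2 may share reads with it. Lox_CTR had the lowest Csf1r level of both classes (694 and 1026 CPM). With TMM factors the Csf1r ratios were 0.34 and -0.20 in Lyve1+ macrophages and 0.26 and -0.39 in all macrophages, and those of Csf2rb were 0.68 and -0.86, the former with an interval that covered 0.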

How the results depend on the processing

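No paired analysis was possible because each group was 1 library. The share of Csf1 UMIs held by fibroblasts, 84.6%, was 66.6% with 1 more marker, 83.4% with no upper limit on genes, 86.3% without doublets, 85.3% with markers on at 5% and 50.6% at 20%, since fewer cells were then called fibroblasts (5640 and 4338 in place of 7347 with 1 more marker and at 20%). The share of Csf1r UMIs held by macrophages, 82.7%, was 81.5%, 85.4% and 81.6% with no upper limit on genes, without doublets and at 5%. Over the 4 comparisons in fibroblasts and in macrophages, 8 ratios of the genes described passed 2-fold, belonging to 5 genes, and 4 ratios did so with 1 more marker and 5 with markers on at 5%. Thinning lowered the share of cells with a UMI from 91.9% to 76.6% for Csf1r, 69.8% to 33.5% for Csf2ra and 29.0% to 9.78% for Csf2rb in macrophages, and from 62.2% to 11.1% for Kit and 78.4% to 13.9% for Flt3 in cDC1. Without a minimum of UMIs, 40.4%, 27.5%, 33.4% and 33.5% of genes passed 2-fold in macrophages and 31.3%, 26.0%, 25.9% and 21.2% in fibroblasts, in the order diet in Lox, diet in KO, genotype in CTR and genotype in HFD. Signs were reversed for Csf2ra in macrophages with diet in KO (-0.11 as a mean over cells), Csf1r in fibroblasts with diet in Lox (-0.24 at 5%) and with genotype in HFD (0.29 at 5%, 0.22 as a mean over cells), and Kitl in endothelial cells with diet in Lox (0.24 as a mean over cells). The cause was not tested. Few cells limit the precision in endothelial cells (22 to 74 per library), and more so in neutrophils outside Lox_CTR (7 to 15). Leaving out Lox_CTR, chosen after the data were seen, lowered the pooled neutrophil levels of Csf1 and Csf3r from 157.5 to 82.6 and from 980.1 to 571 CPM.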

Other observations

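Csf2, the gene of GM-CSF and thus of the ligand of Csf2ra and Csf2rb, had 274 UMIs in 14 of 21 ILC2 of Lox_CTR (1987 CPM), and the 7 ILC2 of the other libraries had none. The Csf2 UMIs of fibroblasts in Lox_CTR, 174 in all, lay mostly in 3 cells, which held 150 of them. The T cells of Lox_CTR had 36 Csf2 UMIs, and those of the other libraries 4 in all. ILC2 also held 15 UMIs of Il5, whose receptor gene Il5ra had a mean of 49.7 CPM in B cells.

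Fibroblasts with Cilp, Meox1, Thbs4 and Postn differed in Kitl between the normocholesterolemic libraries, with 34 UMIs in 13 of 32 cells of Lox_CTR and no UMI in 26 cells of KO_CTR. The Camp and Chil3 cells had a Csf3r UMI in 52.5% of 99 cells. Over Lox_CTR and Lox_HFD, which had enough of these cells, the mean Csf3r level was 68.1 CPM. The other receptors were higher there, with means of 287 CPM for Csf1r, 215 for Csf2ra and 141 for Csf2rb. The values of this paragraph were chosen after the data were seen and have no replicate.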
